A study of Homo sapiens with 6 samples.

Results

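The genes described here are 10 components of the cytoskeleton: PLEC, FLNA, MYH9, TLN1, DYNC1H1 and SPTAN1, whose products are very long linker or motor proteins, and ACTN1, ACTN4, ACTB and VIM, which are shorter. They were taken by name from 23284 gene symbols, and all 10 were among the 11134 genes that had a mean above 1 FPKM in at least 1 group and were therefore tested. FPKM scales the fragments counted for a gene by the length of its transcript and by the mapped reads of the library, so levels of different genes are comparable per length. The list was chosen with the difference between control and lyophilized cells already known, so that difference is given for these genes as a description. The fits across all genes include them, but the calls and p values of these 10 genes are not read as tests.

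RNA-Seq was performed on GM12873, a B-lymphoblastoid line, which is a line of B cells immortalized with Epstein-Barr virus. Cells were washed and either put directly in Trizol (Control, n = 3) or freeze-dried in PBS with 0.1 M trehalose, a protective sugar, and kept for 2 weeks at room temperature before Trizol was added (Lyo, n = 3). The labels number the replicates of both groups, and the study pairs the samples of the same number, which gives 3 pairs. All 6 samples come from 1 line with no genetic change. Poly(A)-selected libraries were read from 1 end at 75 bases.

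Summed FPKM per sample ran from 468790 to 524744. The deposited values hold no read counts per gene, so the counting error behind a value could not be given. The paper does list raw reads per library, which were fewest in Control 1 and most in Lyo 1, while Control 3 had more than Lyo 3. It also lists duplication rates, above the median in every Control library and below it in every Lyo library. The part of depth and duplication in the difference between the groups was not tested. All 8 B cell markers on the list had a mean above 1 FPKM in at least 1 group, with summed levels of 1310 to 1923 FPKM in Control and 1283 to 1846 FPKM in Lyo. None of the 6 T cell markers had such a mean. Of the other marker lists, S100A9 (monocytes), ACTA2 and TAGLN (fibroblasts and muscle) and KRT18 (epithelia) exceeded 1 FPKM in at least 1 sample. The 11 fibroblast and muscle markers, 3 of them at 0 in every sample, summed to 20.5 to 22.99 FPKM in Control and 16.4 to 18.9 FPKM in Lyo, without overlap, and their part in the results was not tested. Nothing in the labels says that the pairs came from separate frozen stocks, so the spread between samples may be partly technical. Because FPKM is scaled to the mapped reads of each library, neither the number of cells nor the RNA per cell can be read from these bulk measurements.

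Actin filaments, microtubules and intermediate filaments are the fibres that give a cell its shape. Actin is cross-linked by alpha-actinin and filamin, pulled by non-muscle myosin II, tied to the membrane by spectrin and to integrins by talin. Plectin links intermediate filaments such as vimentin to the other fibres, and cytoplasmic dynein carries cargo along microtubules. In B cells these proteins serve the immune synapse, migration and the uptake of antigen.

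PLEC, which encodes the linker plectin, showed the largest difference of the 10 genes. It was measured at 11.5, 8.99 and 9.68 FPKM in Control 1 to 3 and at 4.43, 3.68 and 3.66 FPKM in Lyo 1 to 3. Every Lyo value lay below every Control value. The share of all genes tested with such a separation is not given here, so an absence of overlap is only a description, here and below. The Lyo mean of 3.92 ± 0.44 FPKM (SD, n = 3) was 39.0% of the Control mean of 10.1 ± 1.32 FPKM. The difference in log2(FPKM + 0.1), Lyo minus Control, was -1.34 (standard error 0.15), and it was nearly the same in the 3 pairs, at -1.36, -1.26 and -1.38. Of all genes tested, 0.117% had a lower log2 fold change.

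MYH9, FLNA and TLN1 came next and close together. MYH9, the heavy chain of non-muscle myosin IIA, was measured at 123, 125 and 133 FPKM in Control and at 90.2, 76.0 and 88.6 FPKM in Lyo. FLNA, the actin cross-linker filamin A, was measured at 92.7, 105 and 99.1 FPKM in Control and at 65.6, 70.9 and 64.01 FPKM in Lyo. TLN1, the integrin-binding protein talin, was measured at 70.9, 68.6 and 77.9 FPKM in Control and at 51.9, 46.2 and 56.2 FPKM in Lyo. The groups did not overlap for any of these genes. Lyo means were 66.9% (MYH9), 67.6% (FLNA) and 71.0% (TLN1) of the Control means, and the log2 fold changes were -0.58, -0.56 and -0.50, with standard errors of 0.11, 0.11 and 0.12. The order of the 3 genes differed between the pairs, so they cannot be ranked against each other.

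The remaining long genes stood apart from those 4. SPTAN1, the non-erythroid alpha-spectrin of the membrane skeleton, was measured at 34.1, 31.7 and 35.9 FPKM in Control and at 30.3, 25.4 and 31.1 FPKM in Lyo. Its groups did not overlap, but the highest Lyo value came within 1 FPKM of the lowest Control value, and the log2 fold change was -0.23 (standard error 0.12). DYNC1H1, the heavy chain of cytoplasmic dynein, was measured at 11.9, 18.2 and 17.1 FPKM in Control and at 13.0, 14.2 and 16.01 FPKM in Lyo. Its groups overlapped, with the lowest value of all 6 in a Control sample, and the pairs did not share a direction: the log2 difference was 0.13 in pair 1, -0.36 in pair 2 and -0.10 in pair 3. The DYNC1H1 mean difference of -0.11 became 0.01 without Control 2 and -0.30 without Control 1, with the partner of the sample left out still in the fit.

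**Figure D1:**
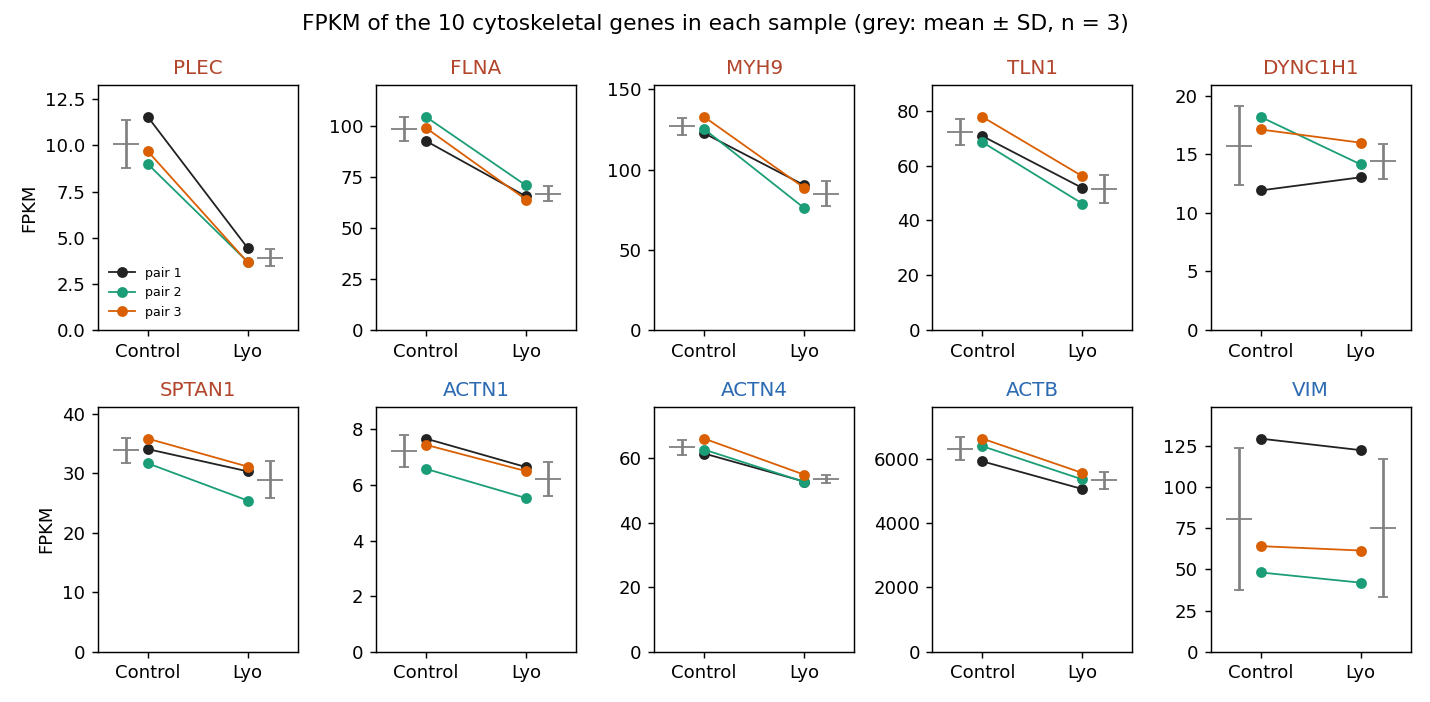
FPKM (vertical axes, each from 0) of the 10 genes in the 3 Control and 3 Lyo samples, with a line joining each pair and the mean ± SD of each group (n = 3) in grey. Names in red are the long linkers and motors, names in blue the shorter genes. PLEC drops in every pair to a Lyo mean of 3.92 FPKM, whereas VIM is high in pair 1 and lower in pairs 2 and 3 in both groups.

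The 4 shorter genes differed less between the groups than PLEC, MYH9, FLNA and TLN1 did. ACTB, beta-actin, was measured at 5919, 6391 and 6626 FPKM in Control and at 5058, 5356 and 5559 FPKM in Lyo. The groups did not overlap, and the log2 difference was -0.23, -0.25 and -0.25 in the 3 pairs, the narrowest spread of the 10 genes (SD 0.016). ACTB was 0.964% to 1.41% of the summed FPKM of a sample, and its Control mean was the highest of all genes tested.

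ACTN4 and ACTN1 encode the non-muscle alpha-actinins, which bundle actin filaments as antiparallel dimers. ACTN4 was measured at 61.5, 62.7 and 66.1 FPKM in Control and at 52.8, 52.7 and 54.9 FPKM in Lyo, without overlap. ACTN1 was measured at 7.67, 6.58 and 7.44 FPKM in Control and at 6.64, 5.53 and 6.50 FPKM in Lyo, and Lyo 1 exceeded Control 2. The log2 fold changes were -0.25 and -0.21, with standard errors of 0.098 and 0.13. The split between the actinins stayed within a narrow band: ACTN4 made up 88.9%, 90.5% and 89.9% of the sum of both in Control and 88.8%, 90.5% and 89.4% in Lyo.

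The actinins also show how far the sequence of related mRNAs can differ. In the coding sequences of their MANE Select transcripts, 768 of 892 aligned amino acids were identical (86.1%), and 255 of these (33.2%) were written with a different codon. At the identical amino acids, the third base of the codon was G or C in 79.7% of ACTN1 and 87.4% of ACTN4. The stretch of 20 identical amino acids within 1 exon that differs most is shown 5′ to 3′ on the coding strand, with the 11 differing bases in capitals. It covers codons 230 to 249 of ACTN1 in exon 8 of 22 (GRCh37, chr14:69369209-69369268, minus strand) and codons 249 to 268 of ACTN4 in exon 8 of 21 (chr19:39200908-39200967, plus strand). All of these differences leave the protein unchanged, and G or C filled 70% of the third codon positions in ACTN1 and 80% in ACTN4.
ACTN1: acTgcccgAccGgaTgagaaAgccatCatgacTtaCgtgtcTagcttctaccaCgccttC
ACTN4: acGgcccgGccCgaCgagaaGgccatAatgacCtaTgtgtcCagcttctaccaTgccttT

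VIM, the intermediate filament protein vimentin, varied between pairs more than between groups. It was measured at 130, 48.2 and 64.2 FPKM in Control and at 123, 42.0 and 61.6 FPKM in Lyo. Pair 1 was high in both groups, and the highest Control value was 2.69 times the lowest, against at most 1.53 times for the other 9 genes. The log2 difference within the pairs was -0.08, -0.20 and -0.06. Because of pair 1, the VIM mean difference of -0.11 depended on which samples were kept: it became 0.29 without Control 1, -0.54 without Lyo 1 and 0.24 without Lyo 2. Each of these fits kept the partner of the sample left out and had no term for the pair. They therefore show the difference between the pairs and not a change of direction within them.

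Ranked by their Control means per length, the genes ran from ACTB over MYH9, FLNA, VIM, TLN1, ACTN4, SPTAN1, DYNC1H1 and PLEC to ACTN1. The ranges of VIM overlapped those of its neighbours FLNA and TLN1, and no other neighbours in this order overlapped in Control. In Lyo the order of PLEC and ACTN1 was exchanged: PLEC lay above ACTN1 in all 3 Control samples and below it in all 3 Lyo samples. By their Lyo means, VIM (75.4 FPKM) also stood above FLNA (66.8 FPKM), and ACTN4 (53.5 FPKM) above TLN1 (51.4 FPKM), with overlapping ranges. In Control, TLN1 had lain above ACTN4 in all 3 samples. The ratio of ACTB to PLEC in FPKM was 513, 711 and 684 in Control and 1141, 1455 and 1521 in Lyo.

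Measured against ACTB in the same sample, the genes fell into 2 sets that did not follow the division into long and short. The log2 ratio to ACTB, Lyo minus Control, averaged -1.11 ± 0.070 for PLEC (SD over 3 pairs), -0.34 ± 0.13 for MYH9, -0.32 ± 0.053 for FLNA and -0.25 ± 0.056 for TLN1, and it was negative in each pair. It was 0.02 ± 0.068 for SPTAN1, 0.03 ± 0.027 for ACTN1 and 0.00 ± 0.011 for ACTN4, all within 1 SD of 0. For VIM and DYNC1H1 it was 0.13 ± 0.070 and 0.13 ± 0.23. SPTAN1 and DYNC1H1, though long, thus lay with the shorter genes.

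**Figure D2:**
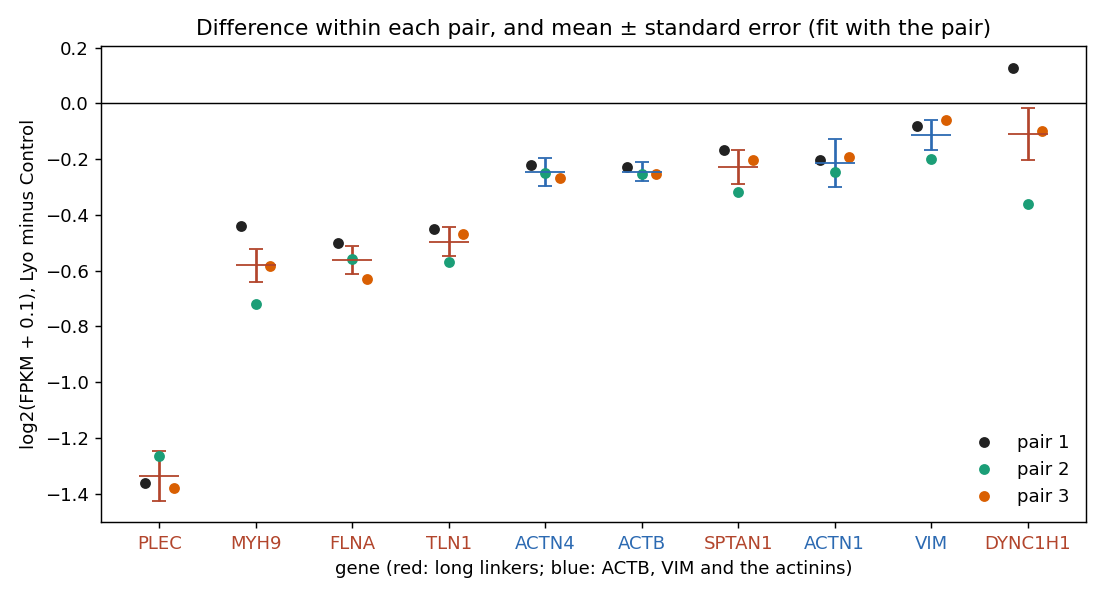
Difference in log2(FPKM + 0.1), Lyo minus Control (vertical axis), within each of the 3 pairs (points), with the mean and its standard error from the fit that includes the pair (bars), for the 10 genes in order. PLEC stands alone near -1.34, MYH9, FLNA and TLN1 lie between -0.44 and -0.72 in every pair, and DYNC1H1 lies on both sides of 0.

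Averaged over the genes of each kind, the mean log2 level of the 6 long genes minus that of the 4 shorter ones was -1.80, -1.38 and -1.49 in Control and -2.09, -1.77 and -1.86 in Lyo. Control 1, in which VIM was high, lay just below Lyo 2, so the groups overlapped. Within the pairs the difference between the groups was -0.28, -0.39 and -0.37, with a mean of -0.35. Without PLEC the mean was -0.19.

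The fit across all genes, limma with the condition only and Benjamini-Hochberg adjustment, called 0.557% of the genes tested lower in Lyo and 0.018% higher. Among the 10 genes it called PLEC lower. With the replicate pair as a block, the shares were 14.9% lower and 15.9% higher, and 7 of the 10 genes were called lower: PLEC, FLNA, MYH9, TLN1, SPTAN1, ACTN4 and ACTB. With the pair and a correction for GC content, 6.46% of the genes with a transcript were called lower and 9.61% higher, and of the 10 genes PLEC, FLNA, MYH9 and TLN1 were called lower, at log2 fold changes that had shrunk to -0.99, -0.28, -0.38 and -0.32. With length removed as well, 878 of 10508 genes were called in either direction. Of the 10 genes FLNA alone was called, and in the other direction, at 0.21 (limma adjusted p = 0.041). Because these genes were selected on this contrast, nothing is read from their number, from any single call or from its p value. The PLEC call was lost when any 1 library was left out, with adjusted p values from limma of 0.053 to 0.25, while its log2 fold change stayed between -1.42 and -1.23. It was also lost without the filter on low values (0.0701) and with the pair, GC content and length in the fit (0.32).

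The transcripts of the 10 genes differ in length, by which they were divided into long and shorter, and in base composition, which the choice of genes did not use. By the longest coding transcript in GENCODE on GRCh37, PLEC has 15249 nt with 67.0% GC, FLNA 8507 nt with 62.3%, MYH9 7536 nt with 58.3% and TLN1 8674 nt with 57.4%. SPTAN1 has 8229 nt with 54.1% and DYNC1H1 19940 nt with 52.1%, although only 14295 nt of the latter lie in the locus that the tables give. Of the shorter genes, ACTN4 has 4990 nt with 58.6% GC, ACTB 2554 nt with 56.5%, ACTN1 3784 nt with 55.2% and VIM 2154 nt with 54.3%. Inside their loci lie 3932 nt of ACTN4, 1815 nt of ACTB (55.2% GC) and, of the long genes, 8285 nt of TLN1. The median gene tested has 3400 nt and 48.1% GC, so all 10 genes are richer in GC than the median. PLEC stands at percentile 98.8 for GC content and 99.3 for length, and DYNC1H1 at percentile 61.8 for GC content and 99.9 for length.

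Among the 10 genes, the order of the log2 fold changes lay nearer to that of GC content than to that of length. Spearman's rho was -0.90 with GC content and -0.28 with length, over 10 genes that were measured in the same 6 libraries and are not independent replicates. They were also chosen on this contrast and divided by length, so these values do not weigh GC content against length. With length counted inside the loci of the tables, rho was -0.37. DYNC1H1, the least rich in GC, had, with VIM, the smallest difference, and PLEC, the richest in GC, the largest. ACTN4 has slightly more GC than MYH9 but is shorter, and its log2 fold change was -0.25 against -0.58. G or C at the third codon position was less closely related (rho -0.50): it stood at 88.9% in PLEC and 84.1% in MYH9, but also at 86.8% in ACTN4 and 84.5% in ACTB.

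To show what these compositions look like, 20 codons are printed for FLNA and MYH9, with the third base of each codon in capitals, 5′ to 3′ on the coding strand. Each is the stretch within 1 exon whose GC content and third-base GC content lie nearest to those of the whole coding sequence of its gene. The FLNA stretch covers codons 266 to 285 in exon 5 (GRCh37, chrX:153595778-153595837, minus strand; 61.7% GC, 75.0% of the third bases) and the MYH9 stretch codons 85 to 104 in exon 2 (chr22:36744970-36745029, minus strand; 60% and 85.0%).
FLNA: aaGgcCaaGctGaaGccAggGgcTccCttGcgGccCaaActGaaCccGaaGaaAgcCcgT
MYH9: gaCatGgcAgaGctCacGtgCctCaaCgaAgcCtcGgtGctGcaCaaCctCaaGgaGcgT

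**Figure D3:**
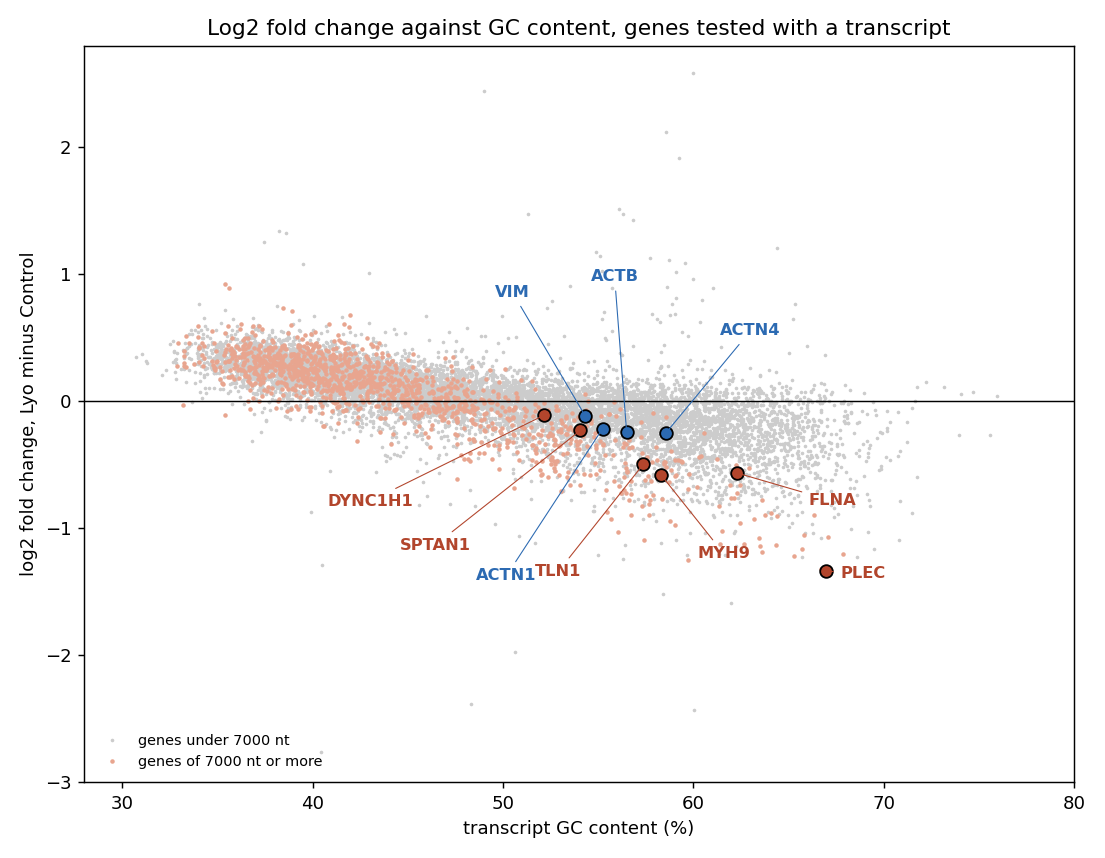
Log2 fold change, Lyo minus Control (vertical axis), against the GC content of the transcript in percent (horizontal axis) for the 10508 genes tested that have a coding transcript, with the 10 genes marked in red (long) and blue (shorter). Genes of 7000 nt or more are drawn in light red and the others in grey. The cloud of all genes slopes downwards, and PLEC lies at its lower edge at 67.0% GC.

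Each gene was therefore set beside the genes tested whose GC content lay within 1 percentage point of its own. The median log2 fold change of these genes was -0.33 around PLEC (142 genes), -0.25 around FLNA (475 genes), -0.17 around MYH9 (689 genes) and -0.15 around TLN1 (653 genes). PLEC lay below all 142 of them, by 1.01 under their median. MYH9, TLN1 and FLNA lay at percentiles 7.0, 10.0 and 16.4 of theirs, and the other 6 genes between percentiles 25.96 (SPTAN1) and 46.7 (VIM).

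Within each class of GC content from 50% to 70%, longer genes had lower values in Lyo. Genes below 50% GC were not divided by length. Among genes with 55 to 60% GC, the median log2 fold change was 0.00 under 2000 nt (531 genes), -0.16 from 2000 to 4000 nt (714 genes), -0.31 from 4000 to 7000 nt (321 genes) and -0.51 from 7000 nt (79 genes). At 60 to 70% GC it ran from -0.07 in the shortest class (533 genes) to -0.90 in the longest (36 genes), and at 50 to 55% GC from 0.05 (399 genes) to -0.26 (156 genes). Over all GC contents together, the genes of 7000 nt or more had a median of 0.13 (1285 genes) and those under 2000 nt one of 0.06 (2314 genes). Over all GC contents, long genes were thus not lower in Lyo than short ones.

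**Figure D4:**
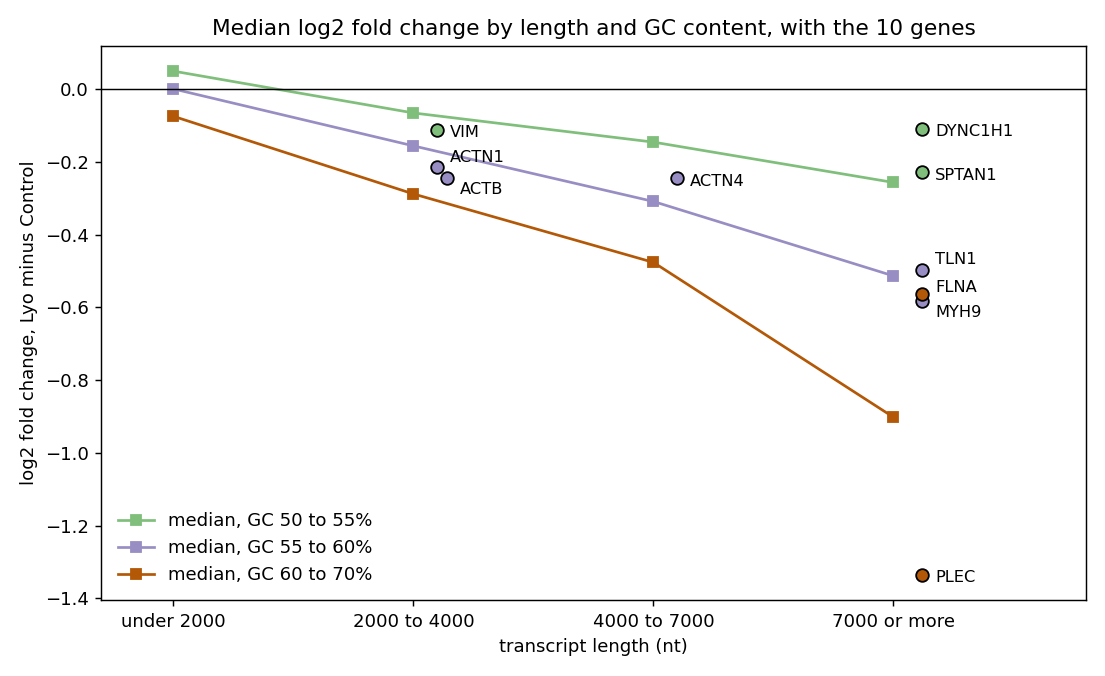
Median log2 fold change, Lyo minus Control (vertical axis), of the genes tested in 4 classes of transcript length (horizontal axis) and 3 classes of GC content (coloured lines, squares), with the 10 genes as circles in the colour of their GC class. All 3 lines descend with length, and TLN1 and MYH9 lie near the median of their own class, at -0.51.

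Each gene was then set beside genes like it in GC content and within 2 times in length. Most of the 10 genes lay at or below percentile 50 of theirs, and ACTN4 and DYNC1H1 above it. FLNA stood at percentile 50 of 82 such genes, SPTAN1 at 47.2 of 197, ACTN4 at 55.7 of 379 and TLN1 at 31.4 of 137. VIM stood at percentile 34.9, ACTN1 at 33.9 and ACTB at 23.9 of theirs. MYH9 lay at percentile 15.5 of 200 genes, with a log2 fold change 0.23 below their median of -0.35. DYNC1H1 lay at percentile 90.9 of 22 genes, whose median was -0.43. Matched on the 14295 nt inside its locus it lay at percentile 70.4 of 54 genes, whose median was -0.20. Matched in that way, ACTN4 lay at percentile 46.0 of 463 genes, TLN1 at 26.5 of 151 and ACTB at 14.3 of 377. PLEC had only 3 such genes, with a median of -1.07, and lay below all 3, at 0.27 under their median. This number of genes is too small to place it.

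Values corrected by a curve did not all match the comparison with like genes. With GC content and length both removed by a loess curve in each sample, the difference between the long and the shorter genes turned from -0.35 to 0.10, and with GC content alone removed it was -0.30. The PLEC value turned from -1.34 to 0.09 and the DYNC1H1 value from -0.11 to 0.28, and the FLNA value from -0.56 to 0.21. Set against genes like in GC content and length, PLEC had instead lain 0.27 below their median and FLNA 0.01 above it. PLEC and DYNC1H1 stand at percentiles 99.3 and 99.9 for length, where few genes fix the curve, so their corrected values are uncertain. The values of 75-base reads could also depend on sequence shared with other loci, since only reads that map to 1 place were kept. Exact copies elsewhere in the genome were found for 3.71% of the 75-base stretches of the ACTB transcript, 0.773% of ACTN4, 0.544% of DYNC1H1, 0.281% of MYH9 and 0.0923% of PLEC, and for none of the other 5 genes. Their part in the levels was not tested.

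Of 22 paralogues of the 10 genes, 6 passed the filter. FLNC, a muscle relative of FLNA, was at most 0.033 FPKM in any sample. The actinins ACTN2 and ACTN3 of muscle were at most 0.012 and 0.018 FPKM, and TLN2, the relative of TLN1, was at most 0.32 FPKM. MYH10, the other widely used non-muscle myosin heavy chain, reached 0.83 ± 0.12 FPKM in Control and 1.00 ± 0.050 FPKM in Lyo. DES, the muscle counterpart of VIM, was listed at 0 in all 6 samples.

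ACTG1, gamma-actin, was measured at 2638, 2239 and 2684 FPKM in Control and at 2404, 2111 and 2427 FPKM in Lyo. Of its 375 amino acids, 371 are identical in ACTB, though no 75-base stretch of the ACTG1 transcript had an exact copy elsewhere in the genome. Reads with mismatches could still be split between the actins in an unknown way. Its log2 fold change was -0.12 (standard error 0.15), and its groups overlapped. ACTB made up 69.2%, 74.1% and 71.2% of the sum of both actins in Control and 67.8%, 71.7% and 69.6% in Lyo, lower in each pair. ACTA2, the smooth muscle actin, stood at 17.7 ± 0.38 FPKM in Control and 15.8 ± 1.28 FPKM in Lyo.

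The plakin relatives of PLEC, which like it link fibres of the cytoskeleton, are longer still but poorer in GC. DST (24709 nt, 41.6% GC) was measured at 5.05, 6.39 and 5.67 FPKM in Control and at 8.74, 7.52 and 10.0 FPKM in Lyo, without overlap. MACF1 (24340 nt, 46.0% GC) was measured at 10.3, 12.8 and 13.3 FPKM in Control and at 15.4, 12.2 and 15.7 FPKM in Lyo, with overlap. The log2 fold changes were 0.61 for DST and 0.24 for MACF1, with standard errors of 0.15 each, where PLEC had -1.34. DST did not pass with the condition only (limma adjusted p = 0.14) and rose with the pair as a block (limma adjusted p = 0.0067), also after GC correction (0.017) and after GC and length correction (0.010). MACF1 passed in none of the fits with the condition only, with the pair as a block (limma adjusted p = 0.11) or with the block and GC correction (limma adjusted p = 0.24).

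The wider machinery was followed in 8 lists of partner genes, of which 221 genes were tested. The fit with the condition only called 1 of them, lower in Lyo, against the 0.557% lower and 0.018% higher among all genes tested. At an unadjusted p under 0.05 there were 23 lower and 15 higher (10.4% and 6.79%), beside 9.17% and 4.96% of all genes tested. The gene called was MAP1S, which encodes a microtubule-associated protein. It was measured at 12.5, 11.9 and 12.1 FPKM in Control and at 7.71, 6.74 and 6.57 FPKM in Lyo, a log2 fold change of -0.79 (standard error 0.11, limma adjusted p = 0.039), and was lower in all 3 pairs. Its transcript has 3399 nt, the median of the genes tested, and 67.4% GC. The call was lost without the filter on low values (adjusted p = 0.083 from limma), with quantile normalization (0.0502) and without any 1 library (0.074 to 0.25). It was kept with the pair as a block (limma adjusted p = 0.00045), also after GC correction (0.0057) and after GC and length correction (0.034).

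With the pair as a block, limma called 50 of the 221 partner genes lower and 43 higher, beside 14.9% and 15.9% of all genes tested. With GC content removed as well, it called 16 lower and 27 higher, beside 6.46% and 9.61%. The median log2 fold change of the partner genes was 0.02, beside 0.04 for all genes tested.

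The list of talin and integrin adhesion genes had the lowest median, -0.15 over 31 genes. With the block, 14 of its genes were lower and 4 higher, and after GC correction 2 and 2. The median GC content of its genes was 55.3%, the highest of the 8 lists, and its part in these counts was not tested. Its most abundant members were CSK, a kinase that restrains Src-family kinases, at 159 ± 15.7 FPKM in Control and 126 ± 4.78 FPKM in Lyo, and PARVB, the adaptor beta-parvin, at 132 ± 22.8 and 131 ± 17.5 FPKM. CSK did not pass with the condition only (limma adjusted p = 0.27), fell with the block (0.0027) and did not pass after GC correction (0.64).

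The 47 genes of actin assembly and turnover included 5 lower and 13 higher with the block, and 2 lower and 10 higher after GC correction. The most abundant were the actin-sequestering thymosins, with TMSB4X at 5738 ± 284 FPKM in Control and 6689 ± 431 FPKM in Lyo and TMSB10 at 2375 ± 306 and 2622 ± 272 FPKM. Both were higher in Lyo in every pair, whereas ACTB was lower in every pair. They did not pass with the condition only (limma adjusted p = 0.51 and 0.70) and rose with the block (0.0024 and 0.017). In the list of actin cross-linkers, spectrin and membrane linkage, 5 of 31 genes were lower and 7 higher with the block, and 1 and 2 after GC correction. LCP1, the leukocyte actin bundler L-plastin, was measured at 755 ± 73.3 FPKM in Control and 872 ± 24.9 FPKM in Lyo (log2 fold change 0.21) and TAGLN2 at 336 ± 51.9 and 345 ± 45.7 FPKM.

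Of the 26 myosins and their regulators, 9 were lower and 6 higher with the block, and 4 and 3 after GC correction. MYL6, a light chain that associates with the MYH9 heavy chain, did not share its direction: it was measured at 727 ± 39.5 FPKM in Control and 809 ± 74.5 FPKM in Lyo, higher in each pair. RHOA, the small GTPase upstream of myosin activity, stood at 314 ± 16.8 and 304 ± 13.6 FPKM. Of the 35 genes for dynein, dynactin and kinesins, 6 were lower and 6 higher with the block, and 3 and 2 after GC correction. The dynein light chains DYNLL1 (186 ± 30.8 and 217 ± 36.6 FPKM) and DYNLRB1 (116 ± 7.55 and 114 ± 7.01 FPKM) were the most abundant. DYNLL1 was higher in Lyo in each pair and rose with the block (limma adjusted p = 0.0060; 0.58 with the condition only, 0.0024 after GC correction), whereas DYNLRB1 did not pass (0.78 with the block).

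Tubulins and microtubule-associated proteins, 31 genes with MAP1S among them, had 6 lower and 3 higher with the block, and 3 and 6 after GC correction. The 14 genes for intermediate filaments, lamins and nuclear linkers had 3 lower and 3 higher, and 1 and 1. LMNA, the A-type lamin of the nuclear envelope, stood at 161 ± 14.9 FPKM in Control and 146 ± 19.8 FPKM in Lyo, and TMPO, a lamina-associated protein, at 61.9 ± 19.3 and 69.7 ± 18.2 FPKM. Among the paralogues, 2 were lower, with ACTG1 among them, and 1 was higher (DST) with the block, and 0 and 1 after GC correction.

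**Figure D5:**
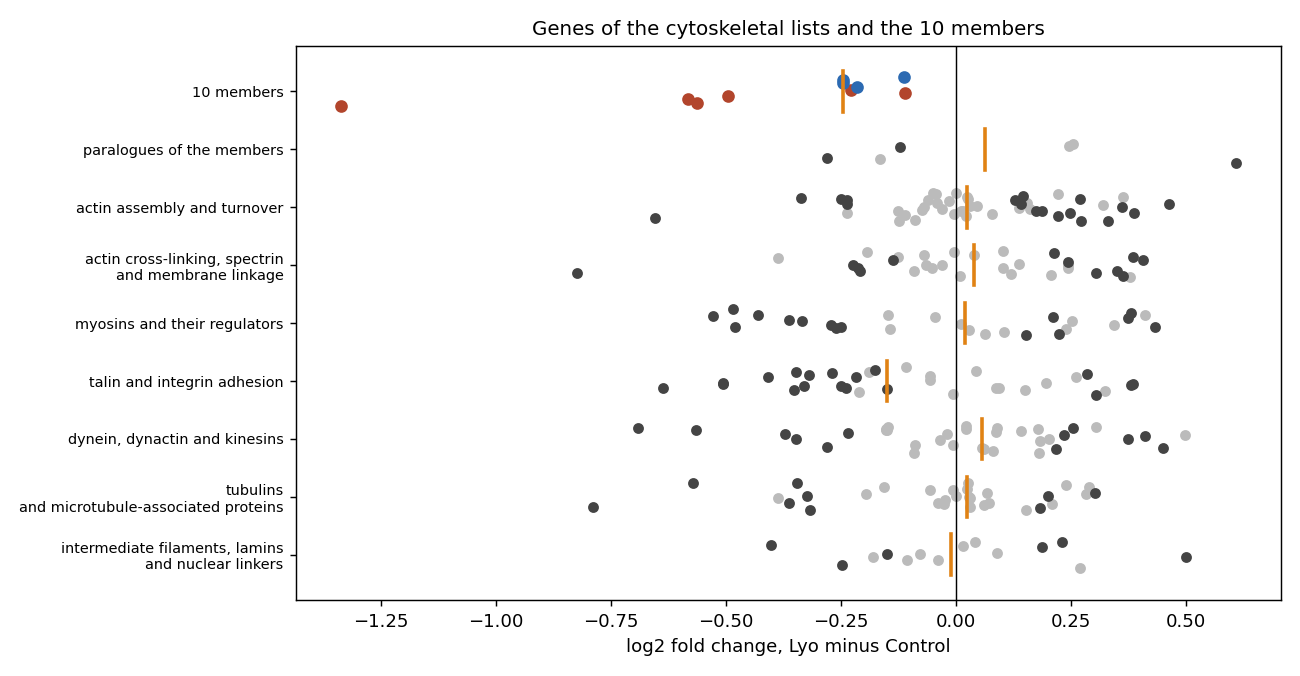
Log2 fold change, Lyo minus Control (horizontal axis), of each tested gene in the 8 partner lists, with the 10 genes on top (red long, blue shorter). Dark points passed limma at an adjusted p of 0.05 with the pair as a block, light points did not, and the orange bar is the median of each row. All 10 genes lie left of 0, and the medians of the lists lie between -0.15 and 0.06.

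Among the 5 genes whose levels over the 6 samples were most like those of PLEC, by the Euclidean distance of centred log2(FPKM + 0.1), were PKD1 (distance 0.23), NOTCH1 (0.26), POLR2A (0.26) and BCL9L (0.29). None of these is on the cytoskeletal lists. Their transcripts have 6304 to 14140 nt and 56.3% to 67.0% GC. The 5 nearest to ACTB were ADAM15 (0.035), CTDP1 (0.054), HTT (0.065), BRD3 (0.066) and AP2A2 (0.073), with 2946 to 14033 nt and 52.3% to 62.9% GC. HTT, at 14033 nt and 54.04% GC, thus had the pattern of ACTB and not that of PLEC.

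In the tables, PLEC spans 61.6 kb of chromosome 8 (GRCh37), MYH9 107 kb of chromosome 22, FLNA 26.1 kb of chromosome X, and TLN1 and SPTAN1 35.1 and 81.1 kb of chromosome 9. DYNC1H1 and ACTN1 span 86.3 and 105 kb of chromosome 14, ACTN4 82.9 kb of chromosome 19, ACTB 3.45 kb of chromosome 7 and VIM 9.34 kb of chromosome 10. The span of the gene, introns included, gave no common order with the difference: ACTN1 and MYH9 are alike in span, at log2 fold changes of -0.21 and -0.58. Each of the 10 genes had 1 record in the tables.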

How the data were processed

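The authors mapped the reads to hg19 (GRCh37) with TopHat2 2.0.7 and kept reads with 1 position. They deposited FPKM values from Cufflinks. The Cufflinks version and gene annotation are not given in the sources used here. The 24934 records were reduced to 23284 symbols (highest mean FPKM), and 1622 small RNA symbols were removed. limma 3.58.1 (R 4.3.3) with a variance trend was fitted to log2(FPKM + 0.1) for 11134 genes, by condition only as in the study, at an adjusted p of 0.05. A fold change on this scale understates the change of low genes. A further fit had the replicate pair as a block. The study pairs the samples by number, and deviations of paired samples correlated at 0.72, 0.60 and 0.48. GC content (and length) was removed by loess (span 0.3, degree 2) in 10508 genes with a GENCODE transcript, of which 9449 matched by symbol, 987 by an older symbol and 72 by locus. The fits were tested on simulated data. Sequences came from MANE Select transcripts (the RefSeq-matched set) with Python 3.11.15. Members and lists were chosen with earlier results of these data known. Named partner genes were up to 3 genes called per list, otherwise the 2 with the highest mean FPKM, plus every tested paralogue and the 5 nearest genes to PLEC and to ACTB. Some of these are not reported here. Alternatives covered the pseudocount, filter, scaling, trend, block, corrections, transcript and each sample left out. Matches by the part of a transcript inside its locus were added after the data were seen.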

Additional observations from a re-analysis of the deposited data

How the results depend on the processing

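With the condition only, limma called 64 genes, and 1 partner gene. The replicate block raised these counts to 3423 and 93, the replicate block with GC correction to 1689 and 43, and the block with GC and length correction to 878 and 29. Without a filter on low values both counts were 0 (2069 genes and 44 partner genes at an unadjusted p under 0.05), and quantile normalization left 0 partner genes (43 unadjusted). Leaving out any 1 library gave 0 to 0 genes and 0 to 0 partner genes by limma, with 879 to 2098 genes and 17 to 49 partner genes at an unadjusted p under 0.05. No other tool was run. The difference between the long and the shorter genes, -0.35, was -0.47 to -0.26 with 1 library left out and its partner kept. It was 0.10 with GC and length correction, which also turned PLEC to 0.094. The cause was not tested. The block left every log2 fold change as it was. Among the values of single genes, 149 moved by less than the spread between pairs and 60 by more. The absence of read counts per gene leaves the counting error of low genes unknown.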
